A study of Neurospora crassa with 18 samples.

Results

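Silent genes of *Neurospora crassa* on neither the list of ASH1-marked genes nor that of H3K27me2/3 genes were followed into an *ash1* point mutant and a strain labelled as a *set-2* deletion. A gene was included if it was on the list of genes without ASH1-catalyzed H3K36me2, was not on the list of genes with H3K27me2/3, and had at most 3 RNA-seq reads summed over the 2 libraries of the wildtype (WT) strain N623. The genes were thus chosen by measured values, their N623 counts and the 2 ChIP-seq lists. This rule gave 531 of 9730 listed genes, which is 7.06% of the 7524 genes with neither mark. They are called silent unmarked genes, or members, here. Since the rule chose genes for low counts in N623, N623 values are given as a description and enter no test on these genes.

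RNA was measured in germinated conidia, the asexual spores of this filamentous fungus, with 2 poly-A+ libraries for each of 4 strains. N4878 is *mat A*; *his-3* and carries *ash1*(Y888F)-3xFLAG::*hph*, an allele of *ash1* with a changed residue in the catalytic domain, and it grows slowly. N5761 is *mat a* and is labelled as having *set-2* replaced by *hph*. N2930 is *mat A*; *his-3*; Δ*mus-52*::*bar*, and the study used it as a parent strain. N623 is *mat A*; *his-3* with no mutation in a methyltransferase. N5761 thus differs from the other 3 strains in mating type and in *his-3* as well as in *set-2*. The lists of marked and unmarked genes came from 1 H3K36me2 ChIP-seq sample in a Δ*set-2* strain, where ASH1 is the remaining enzyme, and the H3K27me2/3 list came from 1 ChIP-seq sample.

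H3K36 methylation in *N. crassa* is made by SET-2, which travels with elongating RNA polymerase II, and by ASH1, which does not need transcription to act. H3K27me2/3 is the mark of facultative heterochromatin, laid down by Polycomb Repressive Complex 2. Constitutive heterochromatin, with H3K9me3 and DNA methylation, is a further silent state of this fungus, and the genes were not screened for it here.

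Each library held 6547197 to 8837798 counts in genes (median 7531836). The libraries carry dates, and those of N2930 and N623 share 1 date that no mutant library has, so date and mutation cannot be told apart in a comparison with either. Reads not counted in a gene were those in no gene, ambiguous reads and reads with several alignments. Together they made up 14.4 and 14.5% in N4878 and 14.8 and 14.05% in N5761, against 4.89 and 5.70% in N2930 and 10.8 and 9.56% in N623. Their part in the results was not tested. *set-2* (NCU00269) had 46 and 50 counts in N5761, against 165 and 210 in N2930 (log2 fold change -1.88, SE 0.25, edgeR adjusted p = 0.00397). It was thus lower but not near 0, unlike the deleted *mus-52*, which had 2 counts in each N2930 library; counts per gene do not show which part of *set-2* the reads came from. *ash1* (NCU01932, *set-3* in RefSeq) had 556 and 825 counts in N4878, whose point mutation leaves the gene in place, and 179 and 181 in N5761, against 711 and 784 in N2930. *ash1* RNA was lower in N5761 than in N2930 (log2 fold change -1.98, SE 0.17, edgeR adjusted p = 0.00148), which stands beside every contrast of the mutants here; its part in them was not tested. The 5 genes listed as marking growing hyphae summed to 23183 and 20911 CPM (counts scaled to 1000000 in genes) in N4878, 21245 and 18943 in N5761, 28165 and 31022 in N2930, and 25349 and 26747 in N623. The 8 listed genes of conidial development summed to 494 and 477 CPM in N4878 and to 1284 and 1608 CPM in N5761, against 293 and 299 CPM in N2930 and 427 and 282 CPM in N623. The 4 listed genes of sexual tissue summed to 352 and 923 CPM in N4878 and to 278 and 278 CPM in N5761, against 138 and 117 CPM in N2930 and 144 and 100.1 CPM in N623. Both libraries lay above both N2930 libraries for 7 of the 8 conidial genes in N4878 and 7 in N5761, and for 4 of the 4 sexual genes in N4878 and 2 in N5761. For the 5 hyphal genes both libraries lay below both N2930 libraries for 5 in N4878 and 3 in N5761. In N5761 both lay above both N2930 libraries for 1 of the 5. The conidial exception in N4878 was *eas*, the hydrophobin gene of the spore coat, with 76 and 82 counts, against 1333 and 1620 in N2930. The conidial gene *con-13* was near 0, with 4 and 4 counts in N4878 and 1 and 2 in N5761, against 0 and 1 in N2930. These directions are against N2930 only, and N623 could differ from it. N623 had 338 and 454 counts of *eas*, and 1715 and 1279 of *csp-1*, against 225 and 338 of *csp-1* in N2930. In N4878 library 2 most of the sexual sum was *asd-1*, with 5443 counts, and *fsd-1* was low in N5761, with 73 and 131 counts, against 213 and 279 in N2930. No gene of the hyphal or sexual list was at 0 in any library, and 1 gene of the conidial list was. The part of such developmental differences in the values below was not tested.

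Of the 531 silent unmarked genes, 299 had 0 reads in N623, 109 had 1, 75 had 2 and 48 had 3. A sum of 3 reads over both N623 libraries corresponds to 0.193 CPM. Just inside the threshold, NCU09099 had 2 and 1 reads and NCU02077 had 1 and 2 reads in N623. Just outside it, NCU02171 had 0 and 4 reads and NCU16327 had 4 and 0 reads, and 42 genes with neither mark had 4. All 531 are annotated as protein-coding in RefSeq, and 8 have a gene symbol. In bulk RNA, fewer cells that transcribe a gene and less RNA per cell cannot be told apart.

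Most silent unmarked genes stayed below 10 reads in 1 or both libraries of each mutant. A gene was taken to have RNA in a strain if each of its 2 libraries held at least 10 reads, which is 1.13 to 1.53 CPM. By this measure 34 silent unmarked genes (6.40%) had RNA in N4878 and 35 (6.59%) in N5761, against 0 in N2930 and 0 in N623. In both mutants 8 genes had RNA, which is 23.5% of the 34 and 22.9% of the 35. A further 26 had RNA only in N4878 and 27 only in N5761, and 470 of the 531 (88.5%) had RNA in neither. The split depends on the minimum of 10 reads, and a gene with RNA in only 1 mutant is not thereby shown to differ between them. There were 109 genes (20.5%) without a read in any of the 8 libraries.

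The 2 other classes of silent genes differed in this respect. Among 568 silent ASH1-marked genes without H3K27me2/3, 206 (36.3%) had RNA in N4878 and 18 (3.17%) in N5761. Among 508 silent genes with H3K27me2/3, 85 (16.7%) had RNA in N4878 and 6 (1.18%) in N5761. This last class was taken without regard to the ASH1 mark. Of all 836 listed genes with H3K27me2/3, silent or not, 236 were ASH1-unmarked. Genes with RNA in both mutants numbered 9 in the ASH1-marked class (4.37% of the 206 and 50% of the 18) and 2 in the H3K27me2/3 class (2.35% of the 85 and 33.3% of the 6). Silent unmarked genes were thus the only one of these 3 classes in which as many genes had RNA in N5761 as in N4878.

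**Figure D1:**
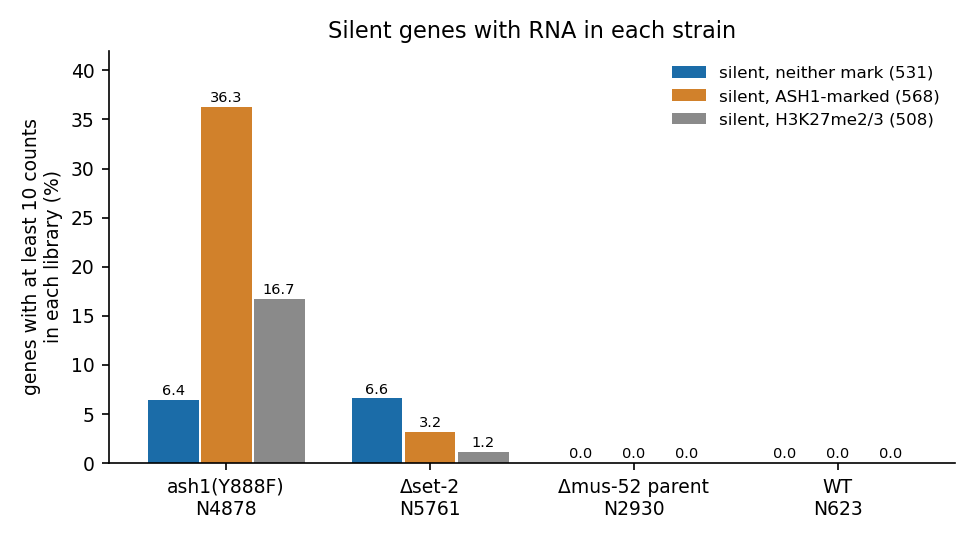
Share of silent genes (y axis, percent) with at least 10 reads in each of the 2 libraries of a strain (x axis), for the 531 silent genes with neither mark, the 568 silent ASH1-marked genes and the 508 silent H3K27me2/3 genes; 1 share a strain, with no error. The unmarked class reached 6.40% in N4878 and 6.59% in N5761, where the ASH1-marked class reached 36.3% and 3.17%.

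The summed level of the 531 genes was 239 and 344 CPM in the 2 N4878 libraries and 243 and 351 CPM in the 2 N5761 libraries, against 43.8 and 29.98 CPM in N2930 and 28.0 and 23.9 CPM in N623. Both mutants lay above both control strains in every library. The 568 silent ASH1-marked genes summed to 1921 and 2353 CPM in N4878 and to 126 and 183 CPM in N5761, against 33.1 and 25.9 CPM in N2930 and 28.9 and 24.3 CPM in N623. A few genes held much of the RNA: the 5 highest silent unmarked genes took 19.3% of the reads of the class in N4878 and 31.8% in N5761.

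The levels reached were low. The median over the genes with RNA was 3.29 CPM in N4878 and 3.04 CPM in N5761, and the highest mean was 17.2 CPM in N4878 and 30.9 CPM in N5761. Genes with neither mark and more than 3 reads in N623 had medians of 41.9 CPM in N4878 and 44.9 CPM in N5761. CPM is not corrected for length, and the genes of that class span more bases.

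The share with RNA is given by N623 count as a description, since the rule used that count and both it and the minimum of 10 reads grow with gene span. In N4878, 3.34% of the genes at 0 reads in N623 had RNA, against 9.17% of those at 1 read, 8% at 2 and 16.7% at 3. In N5761 these shares were 1.67, 11.01, 13.3 and 16.7%. Counting 3 reads or fewer over both libraries, 352 of the 531 genes were as low in N4878 as the rule asks of N623, 372 in N5761 and 481 in N2930.

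Each mutant was then compared with N2930, which the rule had not used, in a fit over all genes (edgeR quasi-likelihood, Benjamini-Hochberg adjusted p under 0.1). Both comparisons share the N2930 libraries. N2930 lacks *mus-52* and both mutants have it (log2 fold change 7.70 in N4878 and 7.24 in N5761). The *mus-52* deletion and the mutations thus cannot be told apart in these comparisons. Of the 531 genes, 34 passed the filter on low counts for N4878 and all 34 were higher in N4878 than in N2930, with 0 lower. For N5761, 35 passed and 33 were higher, with 0 lower. NCU16557 and NCU09029 were the 2 not called. The counts lower were also 0 at an unadjusted p under 0.05 in edgeR and 0 by DESeq2. Over all genes tested, 15.9% were higher and 4.01% lower in N4878, and 27.2% were higher and 25.1% lower in N5761. The filter let in only genes that had reads in a mutant, so a tested gene of this class could hardly be anything but higher, and the share among those tested carries no information. As a share of all 531, 6.40% were called higher in N4878 and 6.21% in N5761. On the same base of all genes in a class, 6.56 and 23.5% of unmarked genes with more than 3 reads in N623 were called higher. For silent ASH1-marked genes these shares were 37.0 and 3.17%. The share of members in N4878 was thus near that of other unmarked genes, and the share in N5761 was below it. Without a filter on low counts, 60 members were called higher in N4878 and 77 in N5761, and DESeq2 gave 53 and 51.

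*mat A-2* (NCU01959) was among the most raised genes in N4878. With *mat A-1* and *mat A-3* it forms the *mat A* mating-type region, and it acts in the development of the fertilized fruiting body. It lies on linkage group (LG) I at 1859093–1860424 (corrected OR74A genome, NC12), plus strand. It had 46 and 55 reads in N4878, 0 and 0 in N5761, 0 and 0 in N2930 and 0 and 0 in N623. The level in N4878 was at least 41.8-fold higher than in N2930, taking 3 reads over both N2930 libraries as the floor (edgeR adjusted p = 0.00634). N5761 is *mat a* and by genotype does not carry the *mat A* genes, so its zeros say nothing of *set-2*. N2930 and N623 are *mat A* and do carry them.

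The genes on either side of *mat A-2* also had reads in N4878. *mat A-3* (NCU01960), a silent ASH1-marked gene transcribed away from it and 624 bp upstream, had 38 and 88 reads in N4878, against 0 and 0 in N2930. *mat A-1* (NCU01958), the gene that specifies mating identity, had 239 and 486 reads in N4878, against 11 and 25 in N2930.

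NCU05730 had the highest level of the class in N4878. It lies on LG III at 671124–672125, plus strand, and has no symbol. It had 164 and 75 reads in N4878, 0 and 0 in N5761, 0 and 1 in N2930 and 1 and 2 in N623. Its level was 296 times that in N2930, with an exact 95% counting interval of 52.7 to 11760 that reflects the single N2930 read (edgeR adjusted p = 0.00682). The next gene upstream, the ASH1-marked NCU05728, had 13 and 37 reads in N4878, against 2 and 7 in N2930.

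Other genes of N4878 had no read in N2930 at all. NCU09059 (LG VII, 488049–488843, minus strand) had 28 and 44 reads in N4878 and 0 in both N5761 and both N2930 libraries, at least 29.8-fold higher than N2930 (edgeR adjusted p = 0.00850). Its upstream neighbour NCU09060 is a silent ASH1-marked gene with 14 and 15 reads in N4878, against 2 and 1 in N2930. NCU07981 (LG IV, 3791159–3794517, plus strand) had 39 and 29 reads in N4878 and 2 and 3 in N5761, against 0 and 0 in N2930. It was at least 28.1-fold higher in N4878 than in N2930 (edgeR adjusted p = 0.00959). Its upstream neighbour, the ASH1-marked NCU07979, had 41 and 55 reads in N4878, against 54 and 29 in N2930.

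Most genes with RNA in N4878, 23 of 34, had no ASH1-marked gene as a direct neighbour. NCU08318 (LG IV, 2426844–2427981) lies 27914 bp from the nearest one and had 38 and 26 reads in N4878, 1 and 0 in N5761, and 0 and 1 in N2930. NCU09872 (LG VI, 1828396–1828779) lies 44124 bp away and had 18 and 19 reads in N4878, 2 and 0 in N5761, and 0 and 0 in N2930. NCU02306 (LG VII, 2992240–2992748) lies 7540 bp away and had 43 and 57 reads in N4878, 3 and 2 in N5761, and 1 and 1 in N2930. In each of these 3 genes both N4878 libraries stood far above the other 6. NCU01866, NCU05388, NCU05643 and NCU02125 complete the genes with the largest rise in N4878, with 10 to 36 reads in each N4878 library and at most 1 in each N2930 library. NCU01866 lies beside the silent ASH1-marked gene NCU01867, which had 0 and 1 reads in N4878 and 0 and 0 in N2930.

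NCU02849 was the most abundant silent unmarked gene in N5761, and it had almost no reads elsewhere. It lies on LG I at 8923097–8924671, plus strand, 19291 bp from the nearest ASH1-marked gene. It had 221 and 239 reads in N5761 and 2 and 2 in N4878, against 3 and 0 in N2930 and 1 and 0 in N623. Its level in N5761 was 175 times that in N2930 (exact 95% counting interval 59.4 to 851, edgeR adjusted p = 0.00148). Its neighbours were low in every library: NCU02850 had 22 and 27 reads and NCU02847 had 6 and 4 reads in N5761, against 11 and 5 and 3 and 2 in N2930.

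NCU10101, NCU08953 and NCU06951 had the same contrast between the mutants. NCU10101 (LG IV, 5613863–5615538) had 57 and 61 reads in N5761 and 3 and 0 in N4878, against 1 and 1 in N2930. NCU08953 (LG V, 5803756–5805213) had 63 and 95 reads in N5761 and 8 and 6 in N4878, against 0 and 2 in N2930. NCU06951 (LG VII, 879701–881640) had 22 and 46 reads in N5761 and 2 and 0 in N4878, against 0 and 1 in N2930. Both N5761 libraries were above the other 6 in all 3 genes. NCU03373 had 15 and 30 reads in N5761 and 2 and 4 in N4878, against 1 and 0 in N2930. NCU07946 had 10 and 11 reads in N5761 and 1 and 12 in N4878, against 0 and 0 in N2930. It was not called between the mutants (edgeR adjusted p = 0.716).

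Some of the largest values in N5761 differed widely between its 2 libraries. *T* (NCU00776, LG I, 7210768–7212976, minus strand) encodes tyrosinase, the copper enzyme that starts melanin synthesis. It had 23 and 194 reads in N5761 and 1 and 16 in N4878, against 0 and 2 in N2930 and 0 and 1 in N623. NCU03969 (LG VI, 2356590–2357129, plus strand) had 33 and 300 reads in N5761 and 12 and 25 in N4878, against 0 and 3 in N2930. In both genes library 2 held most of the reads, and in both the lower N5761 library was still above N2930. *T* was called higher in N5761 than in N2930 (log2 fold change 6.66, SE 1.48, edgeR adjusted p = 0.0169), as was NCU03969 (log2 fold change 6.75, SE 1.48, edgeR adjusted p = 0.0162). NCU05852 (LG VII, 4054383–4055501, minus strand) showed the same split in N4878, with 8 and 192 reads there and 2 and 32 in N5761, against 1 and 1 in N2930 and 1 and 1 in N623. With 8 reads in library 1 it did not count as having RNA in N4878. Library 2 had the higher CPM in 26 of the 35 genes with RNA in N5761 and in 24 of the 34 in N4878.

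*T* and NCU03969 lie inside the span of a gene on the other strand. *T* is covered over 100% of its span by NCU00777, which had 100 and 69 reads in N5761, against 226 and 301 in N2930. NCU03969 is covered over 99.4% by NCU17113, which had 262 and 268 reads in N5761, against 11 and 8 in N2930. Reads were counted by strand. NCU10125 is likewise covered over 100% by NCU09880 and NCU07369 over 93.3% by NCU07368. NCU10125 had 54 and 58 reads in N5761 and 5 and 5 in N4878, against 6 and 3 in N2930. Among the genes with RNA in N5761, 8 of 35 (22.9%) overlapped another gene, against 3 of 34 (8.82%) in N4878 and 93 of 470 (19.8%) with RNA in neither. Of all 531, 103 (19.4%) overlapped another gene and 6 did so on the same strand.

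**Figure D2:**
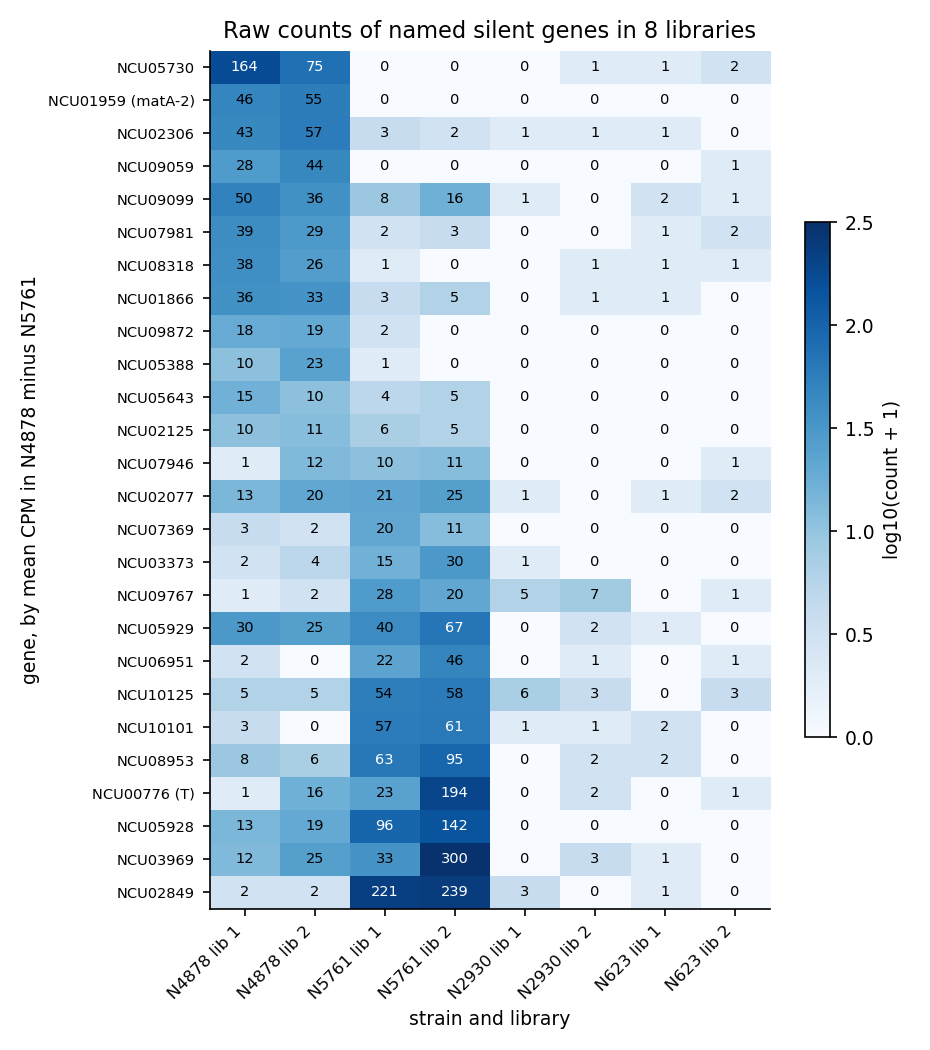
Raw read counts of the 26 named silent unmarked genes with RNA in a mutant (rows, ordered by mean CPM in N4878 minus N5761) in each of the 8 libraries (columns), with colour for log10(count + 1). The top rows are led by N4878, such as NCU05730 with 164 and 75, and the bottom rows are led by N5761, such as NCU02849 with 221 and 239.

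A divergently transcribed pair was raised in both mutants. NCU05929 (LG VI, 3434636–3436054, minus strand) and NCU05928 (3436984–3438174, plus strand) are both silent unmarked genes with 929 bp between their spans. NCU05928 had 13 and 19 reads in N4878 and 96 and 142 in N5761, and none in the 4 libraries of N2930 and N623. NCU05929 had 30 and 25 reads in N4878 and 40 and 67 in N5761, against 0 and 2 in N2930 and 1 and 0 in N623. The first was at least 13.2-fold higher in N4878 (edgeR adjusted p = 0.0138) and at least 90.4-fold higher in N5761 (edgeR adjusted p = 0.00180) than in N2930. The second was 34.1 times (exact 95% counting interval 9.01 to 289) and 61.0 times (16.5 to 510) its N2930 level. The other genes with RNA in both mutants were NCU02077, NCU00653, NCU08469, NCU00039, NCU03969 and NCU09029. NCU02077 had 13 and 20 reads in N4878 and 21 and 25 in N5761, against 1 and 0 in N2930. NCU09029 was the least changed of them, with 16 and 25 reads in N4878 and 18 and 10 in N5761, against 9 and 4 in N2930.

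The mutants were also compared with each other, since neither had entered the rule. Of 60 silent unmarked genes that passed the filter, 22 were higher and 17 lower in N4878 than in N5761, and 21 were not called (edgeR, adjusted p under 0.1). Over all genes tested 14.8% were higher and 11.0% lower. The filter kept genes with reads in at least 1 of the mutants, which favours genes that differ. As a share of all 531 members, 4.14% were higher and 3.20% lower. Of all 568 silent ASH1-marked genes, tested or not, 187 (32.9%) were higher and 3 (0.528%) lower in N4878 than in N5761. Library 2 of N4878 and both N5761 libraries carry 1 date. With these 3 alone, 29 genes were higher and 16 lower, of which 19 and 13 were among the 22 and 17; N4878 then has a single library, taken to vary as those of N5761 do. Without library 2 of N5761, 11 genes were lower.

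Single genes are given as examples. NCU02849 was lower in N4878 than in N5761 by a log2 fold change of -6.58 (SE 0.41, edgeR adjusted p = 0.00366), and NCU10101 by -5.00 (SE 0.83, edgeR adjusted p = 0.0154). NCU09767 had 1 and 2 reads in N4878 and 28 and 20 in N5761, with 5 and 7 in N2930, and differed by -3.72 (SE 0.61, edgeR adjusted p = 0.0150). In the other direction, NCU08318 differed by 5.86 (SE 0.85, edgeR adjusted p = 0.0106), NCU05388 by 4.88 (SE 0.97, edgeR adjusted p = 0.0251), NCU02306 by 4.42 (SE 0.50, edgeR adjusted p = 0.00683) and NCU07981 by 3.89 (SE 0.55, edgeR adjusted p = 0.0102). NCU05730, without a read in N5761, was at least 86.7-fold higher in N4878 (edgeR adjusted p = 0.00966), and NCU09059 at least 26.1-fold (edgeR adjusted p = 0.00954). *T* and NCU03969 were not called between the mutants in this fit (edgeR adjusted p = 0.129 and 0.115). Both were called lower in N4878 by DESeq2 (adjusted p = 0.00797 and 0.00521) and in an edgeR fit with all 4 strains (adjusted p = 0.0640 and 0.0617). Their log2 fold changes of -3.50 and -2.99 were -1.29 and -0.68 without library 2 of N5761 (edgeR adjusted p = 0.592 and 0.763). NCU09099 had 50 and 36 reads in N4878 and 8 and 16 in N5761; it was called (log2 fold change 2.02, edgeR adjusted p = 0.0494), and the call was lost without library 1 of N4878 (edgeR adjusted p = 0.119) or library 1 of N5761 (edgeR adjusted p = 0.249).

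**Figure D3:**
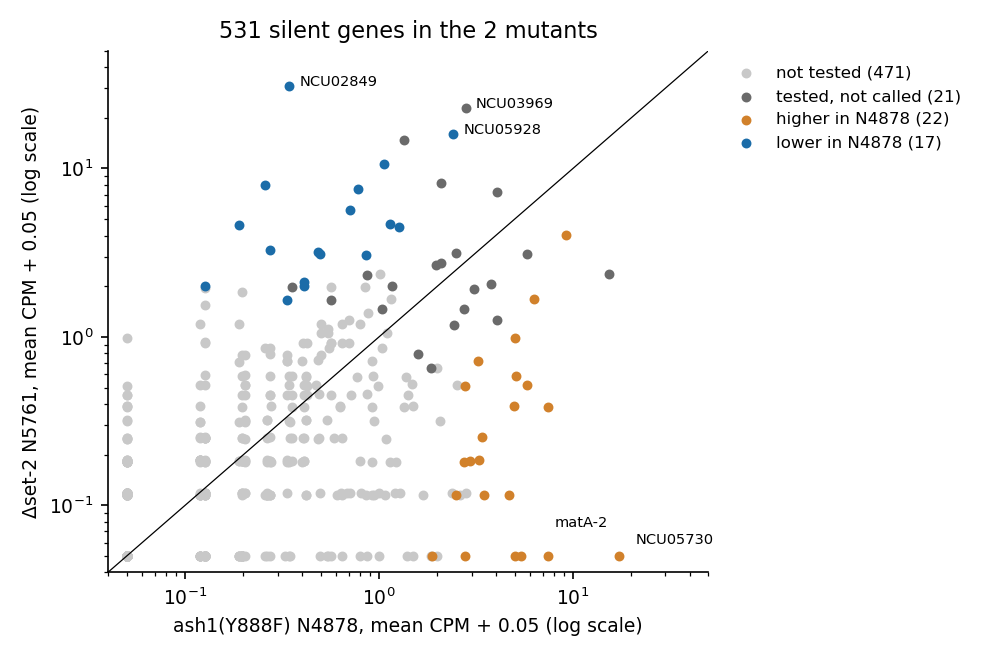
Mean CPM of each of the 531 silent unmarked genes in N4878 (x axis) and N5761 (y axis), both as CPM + 0.05 on log scales, with colour for the edgeR call between the 2 mutants. The 22 genes higher in N4878 lie along the lower right, with NCU05730 at 17.2 CPM, and the 17 lower ones along the upper left, with NCU02849 at 30.9 CPM.

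Few silent unmarked genes belong to the functional groups that were listed. Of the 20 matched genes of mating and sexual development, 2 were members, *mat A-2* and *fmf-1*, and 2 were silent ASH1-marked genes. *fmf-1*, which is needed for fertility of both parents in a cross, had 0 and 0 reads in N4878, 0 and 1 in N5761 and 1 and 0 in N2930. Of 30 matched genes of plant cell wall degradation, 1 was a member, *gh6-1*, a cellobiohydrolase gene with 5 and 6 reads in N4878 and 1 and 0 in N5761, against 0 and 0 in N2930. Of 10 matched genes of secondary metabolism, 1 was a member, the polyketide synthase gene *pks-6*, with 2 and 3 reads in N4878 and 4 and 4 in N5761, against 0 and 1 in N2930. None of 5 matched genes of meiosis, 11 of meiotic silencing and quelling and 16 of conidiation was a member. Of these 4 members only *mat A-2* passed the filter on low counts and was called; the other 3 were not tested.

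The 3 other genes with a symbol were low throughout. *gh18-2*, of a chitinase family, had 7 and 7 reads in N4878 and 1 and 0 in N5761, against 0 and 0 in N2930. *qa-X*, of the quinic acid gene cluster, had 1 and 12 reads in N4878 and 3 and 9 in N5761, against 1 and 2 in N2930. *gh61-11* had no read in any library.

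Silent unmarked genes were short, as silent genes of the other classes were. Their median span was 973 bp (quartiles 680 to 1406), against 1136 bp for silent ASH1-marked genes, 1034 bp for silent H3K27me2/3 genes and 2396 bp for genes with neither mark and more than 3 reads in N623. Of the 531, 51.8% spanned less than 1000 bp, against 40.7% of silent ASH1-marked genes, 47.8% of silent H3K27me2/3 genes and 3.53% of those unmarked genes. The rule set a limit on raw reads, which grow with length, so span is in part set by the rule. Within the class, genes with RNA in a mutant were longer, with medians of 1460 bp for N4878 and 1458 bp for N5761, against 936 bp for genes with RNA in neither. The 109 genes without a read in any library had a median of 639 bp, and 78.9% of them spanned less than 1000 bp. A minimum of 10 reads is likewise met more easily by a longer gene, and how far length alone gives this difference was not tested.

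**Figure D4:**
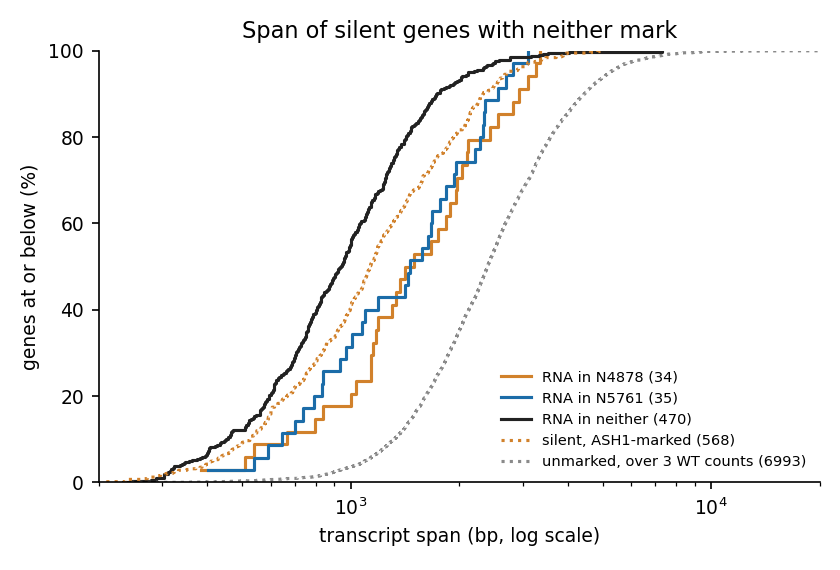
Cumulative share of genes (y axis, percent) at or below a given span (x axis, bp, log scale) for silent unmarked genes with RNA in N4878, in N5761 or in neither, and, dotted, for silent ASH1-marked genes and unmarked genes with more than 3 reads in N623. The curves for genes with RNA, with medians of 1460 and 1458 bp, lie between those with RNA in neither (936 bp) and the unmarked genes with more reads (2396 bp).

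Members were spread over all 7 linkage groups. LG I held 116, II 68, III 71, IV 80, V 79, VI 53 and VII 64, which is 4.94 to 6.62% of the listed genes of each. Most stood alone: 452 of 488 runs of adjoining members held a single gene, 36 runs held at least 2, and 79 members (14.9%) were in such runs. The longest held 4 genes each, NCU03452 to NCU03446 on LG II (669773–691953), none with RNA in a mutant, and NCU04394 to NCU04391 on LG IV (3505045–3515597). In the run on LG IV, NCU04393 had RNA in N5761, with 35 and 34 reads, and 8 and 7 in N4878, against 3 and 1 in N2930. The median gap to the next gene was 1190 bp upstream and 1052 bp downstream, against 1312 and 976 bp for silent ASH1-marked genes, 1300 and 1132 bp for silent H3K27me2/3 genes and 632 and 336 bp for unmarked genes with more than 3 reads. The gaps were thus longer in all 3 classes of silent genes than in that class.

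By distance to ASH1-marked genes, silent unmarked genes resembled other unmarked genes more than silent ASH1-marked ones. The median distance from a silent unmarked gene to the nearest ASH1-marked gene was 9422 bp, against 11488 bp for unmarked genes with more than 3 reads and 1314 bp for silent ASH1-marked genes to the next marked gene. A direct neighbour was ASH1-marked for 147 of 531 (27.7%), against 19.7% of unmarked genes with more than 3 reads and 73.8% of silent ASH1-marked genes. The median distance to the nearest H3K27me2/3 gene was 619951 bp, against 773247 bp for unmarked genes with more than 3 reads and 598861 bp for all listed genes. Within 100000 bp of the outermost listed gene of a linkage group lay 15 members (2.82%), against 2.86% of unmarked genes with more than 3 reads.

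Having RNA in N4878 did not go with a shorter median distance to ASH1-marked genes. The median distance was 9600 bp for the 34 genes with RNA in N4878, against 9422 bp for the 497 without. For N5761 it was 6462 bp for the 35 genes with RNA, against 9609 bp for the 496 without. In N4878, 4 of 52 members within 1000 bp of an ASH1-marked gene had RNA, 13 of 218 beyond 1000 and up to 10000 bp, and 17 of 261 beyond that. In N5761 these counts were 2 of 52, 18 of 218 and 15 of 261. A neighbour was ASH1-marked for 11 of 34 genes with RNA in N4878 and 10 of 35 in N5761, against 128 of 470 (27.2%) with RNA in neither. These counts are descriptions over genes of 2 libraries a strain, with no test.

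**Figure D5:**
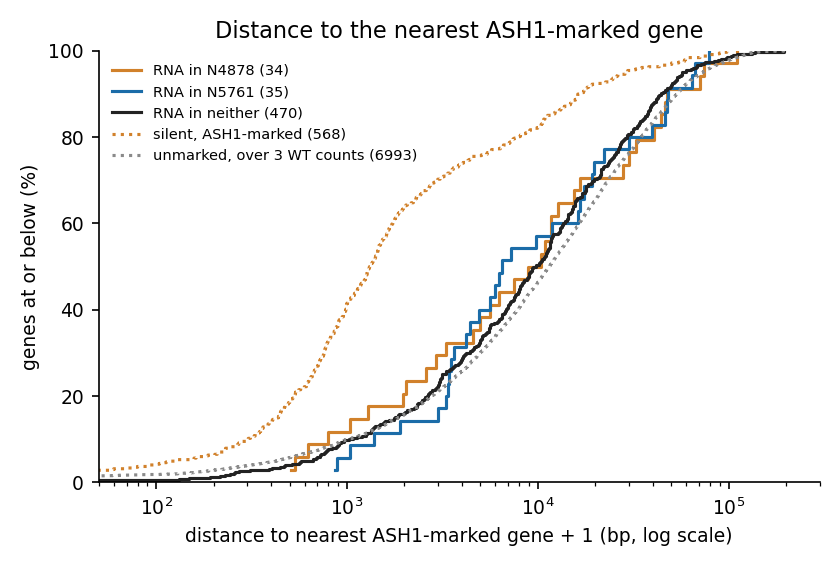
Cumulative share of genes (y axis, percent) at or below a given distance to the nearest ASH1-marked gene (x axis, distance + 1 bp, log scale), for the same 5 sets of genes. The 3 curves of silent unmarked genes have medians of 9600 bp (RNA in N4878), 6462 bp (N5761) and 9609 bp (neither), lowest for N5761. All 3 lie well to the right of silent ASH1-marked genes (1314 bp).

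Raised neighbours of genes with RNA were counted in each mutant, as a description. At least 1 direct neighbour was higher than in N2930 for 13 of 34 genes with RNA in N4878 (38.2%), against 20.9% of the members without RNA there and 18.6% of unmarked genes with more than 3 reads. A raised neighbour was ASH1-marked in 6 of the 13, against 49 of 104 members without RNA and 617 of 1302 unmarked genes, which is a like share. In N5761 it was 13 of 35 (37.1%), against 40.9% of members without RNA and 38.5% of unmarked genes with more than 3 reads, and so no higher than the background. A gene upstream on the same strand was raised for 2 of 20 such genes in N4878 (10%), against 14.7% of members without RNA and 9.50% of unmarked genes with more than 3 reads. In N5761 it was raised for 4 of 18 (22.2%), against 24.1% and 20.5%, so both shares were near the background.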

How the data were processed

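RNA was measured in 4 strains with 2 libraries each, called biological duplicates by the study; p-values measure only the spread between such duplicates. The authors deposited read counts per gene that were not normalized, made from stranded poly-A+ libraries with Stacks (trimming), TopHat2, SAMtools and HTSeq, counted by strand; the sources used here give no tool versions. Library 1 of N2930 was taken from a deposited table without column names, in which 3 more columns repeat other libraries and 4 that name no sample were left out. The authors' gene lists from ChIP-seq (Bowtie2, corrected OR74A NC12) hold a score of 0 throughout and served as lists with positions, counted from 1 here. The authors' own tables of fold changes and p-values, and the H3K27 ratio tables, in which no member is listed, were not used.

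Strains were compared in pairs in R 4.3.3 by edgeR 4.0.16 (TMM scaling, its default filter on low counts, quasi-likelihood test, threshold of 0.1 on p-values adjusted by Benjamini-Hochberg over all genes tested); 8125, 7768 and 8270 genes were tested for N4878 against N2930, N5761 against N2930 and N4878 against N5761. Reads in no gene, ambiguous reads (0.0829 to 0.158%) and reads with several alignments (1.25 to 3.80%) entered neither library sizes nor tests. Folds against a strain without a read are lower bounds that set that strain to 3 reads over both libraries; a gene with 1 to 3 reads is given as a ratio with an exact 95% Poisson interval, which covers counting error only. In data simulated at this depth with 1 common spread for all genes, 91, 100 and 91 of 100 genes changed 4-fold were called in these 3 comparisons, and 100, 100 and 100 of 100 changed 16-fold. The changed genes were drawn from those averaging at least 10 reads a library. This recovery therefore does not describe the members, of which 481 had at most 3 reads in N2930. Replicates correlated with Spearman's rho of 0.959 in N4878 and 0.985 in the other strains.

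Alternatives were RLE size factors, DESeq2 1.42.0, no low-count filter, all strains in 1 fit, a block for the replicate number, a threshold of 0.05, each library left out, other limits for membership (0 or 10 reads) and for RNA (5 or 20 reads), and scaled counts. Genes without overlap on either strand, and 20 reads over both libraries, were added after seeing the data. Named genes are the 12 with the largest fold change called higher in each mutant against N2930, the 6 called most strongly in each direction between the mutants, genes with a symbol that were called or listed, and those at the threshold; other genes were named after their values were seen. The members and gene lists were chosen with earlier results of these data known. Gene symbols were matched in RefSeq's table for NC12. Python 3.11.15 with pandas 2.3.3 and matplotlib 3.10.9 was used for tables and figures.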

Additional observations from a re-analysis of the deposited data

Results flagged for a closer look

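The direct comparison of the mutants drew attention to silent unmarked genes that differed between them. By edgeR, 22 were higher and 17 lower in N4878 than in N5761, of 60 tested. Over all genes tested 14.8% were higher and 11.0% lower, and the filter favours members that differ. Of the 26 members with RNA only in N4878, 21 were called higher. Of the 27 with RNA only in N5761, 16 were called lower. Those among the named genes that were higher in N4878, as log2 fold changes, were NCU05730 (10.02), *mat A-2* (NCU01959, 8.75), NCU09059 (8.26), NCU08318 (5.86), NCU05388 (4.88), NCU02306 (4.42), NCU09872 (4.22), NCU07981 (3.89), NCU01866 (3.25) and NCU09099 (2.02). The first 3 had no read in N5761, so their fitted values depend on the prior count, and the bounds are at least 86.7-fold, 36.7-fold and 26.1-fold. *mat A-2* is not part of the N5761 genome by its mating type.

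Those lower in N4878 than in N5761 were NCU02849 (-6.58), NCU10101 (-5.00), NCU06951 (-4.74), NCU09767 (-3.72), NCU08953 (-3.29), NCU10125 (-3.27), NCU05928 (-2.71), NCU03373 (-2.68) and NCU07369 (-2.40). The call of NCU07369 was lost by DESeq2 (adjusted p = 0.149), and by edgeR without either N4878 library or library 1 of N5761 (edgeR adjusted p = 0.108 to 0.309). That of NCU03373 was lost without library 1 of N4878 (edgeR adjusted p = 0.117) or library 2 of N5761 (edgeR adjusted p = 0.239). NCU05928 was raised in both mutants relative to N2930 and only its size differed. The strains also differ in mating type, *his-3* and in part in library date, and the part of these was not tested.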

How the results depend on the processing

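The count of genes called rested on the handling of low counts and on the limit for membership. DESeq2 gave 53 genes higher in N4878 and 51 in N5761 than in N2930, and no low-count filter gave 60 and 77, with 40 higher in N4878 than in N5761. With membership at 0 WT reads (299 genes) 10 and 5 were higher than in N2930 and 5 higher and 4 lower between the mutants; at 10 reads (715 genes) 66 and 83, and 44 and 42. Genes with RNA in N4878 and N5761 numbered 73 and 65 at a minimum of 5 reads, 16 and 16 at 20 reads, 10 and 5 with membership at 0 and 73 and 89 with membership at 10. In N2930 they numbered 2 at 5 reads and 6 with membership at 10. The share with a span under 1000 bp was 61.2% with membership at 0 and 47.3% at 10; the shares near ASH1-marked genes stayed within their binomial intervals. The other filters and limits admit fewer or more genes by construction; for DESeq2 the cause was not tested.

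Leaving out each library gave 31 to 47 genes higher in N4878 and 30 to 41 in N5761 than in N2930, and 19 to 29 higher and 11 to 16 lower in N4878 than in N5761. Deviations of libraries with the same number correlated at -0.088 for N4878 and N2930 and at -0.056 for N5761 and N2930. They correlated at 0.394 for N4878 and N5761 and at 0.619 for N2930 and N623. Libraries were not paired by number in the fits reported above. The positive correlation between the mutants gives no ground for leaving out the replicate block in their comparison. With the block 33 and 33 genes were higher than in N2930, and 23 higher and 21 lower between the mutants. The block called *T* and NCU03969 lower in N4878 than in N5761 (edgeR adjusted p = 0.00153 and 0.0124), which were not called without it. Of 494 values of named genes under alternatives, 473 kept direction and side of the threshold, 10 lost the call, 10 gained it and 1 turned: NCU07946, not called between the mutants at -0.53, ranged over -3.004 to 0.27 as libraries were left out. Alternatives in which a gene was no longer tested are not among the 494, so calls lost in that way are not counted. Against N2930, NCU02125 was not tested when any N4878 library was left out, nor NCU07946 when any N5761 library was. A silent gene here is one with at most 0.193 CPM in N623, which is the limit of the rule and not a limit of detection. Below that limit, 109 members had 1 read and 75 had 2 in N623. For the 299 members with 0 reads, transcription too low to be seen at this depth was not detectable.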
